A study of Homo sapiens with 4 samples.

Results

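The Hippo pathway components examined here were 33 genes, taken as a list of the pathway's best known members and followed through 4 ATAC-seq peak lists by the nearest-gene name that the authors gave each peak. Of 192435 peaks in the 4 lists, 250 carried the name of a member, and 30 of the 33 genes were named in at least 1 list. ATAC-seq marks accessible DNA through the insertion of sequencing adapters by a transposase. It was applied to Huh7, an established human liver cancer cell line, with 50000 cells per library. The groups were shARID1A cells in 100 nM rapamycin for 6 h, shARID1A cells in DMSO, shControl cells in 100 nM rapamycin for 6 h, and shControl cells in DMSO. All 4 carried a short hairpin RNA, either against ARID1A, a DNA-binding subunit of the BAF chromatin remodeller, or a control one. Rapamycin inhibits the kinase complex mTORC1. Each group was 1 library, so the spread between cultures is unknown, no p-value was computed, and all intervals cover counting error only. How many hairpins or clones were used is not stated in the labels, and the depth of ARID1A knockdown cannot be read from peaks.

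The Hippo pathway is a kinase cascade that limits organ size and holds liver growth in check. Upstream proteins at cell junctions and the cytoskeleton activate the kinases encoded by STK3 and STK4, which activate LATS1 and LATS2. The LATS kinases phosphorylate YAP1 and the TAZ protein (gene WWTR1), which then stay out of the nucleus. When they escape, they bind the TEAD transcription factors and switch on growth genes.

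The lists held 44760 peaks in shARID1A rapamycin, 45700 in shARID1A DMSO, 49783 in shControl rapamycin and 52192 in shControl DMSO. The read depth was unknown. Peak numbers were skipped in the deposited numbering of shARID1A DMSO (6666 numbers, 12.7% of the highest number) and shControl rapamycin (1093, 2.15%), and any peaks with those numbers were not analysed here. Of 13 hepatocyte and Huh7 marker genes, 10 had a promoter peak in all 4 lists and TTR in some of them, while ALB and AFP, which encode albumin and alpha-fetoprotein, had none in any list. Of the markers of other cell types, none of 4 endothelial genes, 2 of 5 leukocyte genes, 2 of 5 stellate and fibroblast genes and 2 of 4 neuron genes had a promoter peak in all 4 lists.

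Promoter windows from RefSeq (GRCh38.p14, 250 bases before to 50 after a transcription start site, TSS) were available for 27 of the 33 genes. The 6 printed here belong to the genes on which the promoter results turn: FAT1 and TEAD2, where the presence of a peak at the annotated TSS differed between lists, LATS2 and AMOT, whose promoter peaks ranked nearer the top in both shARID1A lists, and YAP1 and WWTR1, which encode the effectors of the pathway. Capitals mark matches, on either strand, to CATTCC (the core of the TEAD site), TGANTCA (AP-1), GGGCGG (SP and KLF factors), CCAAT (the CCAAT box), CCGGAA (ETS) or TGTTTAC (FOX). The sequences run 5′ to 3′ on the strand of the gene.
FAT1, chr4:186726647-186726946, minus strand: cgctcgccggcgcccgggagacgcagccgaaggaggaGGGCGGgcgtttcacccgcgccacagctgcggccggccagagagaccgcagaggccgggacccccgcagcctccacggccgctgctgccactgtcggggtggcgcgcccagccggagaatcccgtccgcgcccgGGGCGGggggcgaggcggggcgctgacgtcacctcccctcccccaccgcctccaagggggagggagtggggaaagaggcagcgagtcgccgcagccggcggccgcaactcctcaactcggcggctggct
TEAD2, chr19:49362367-49362666, minus strand: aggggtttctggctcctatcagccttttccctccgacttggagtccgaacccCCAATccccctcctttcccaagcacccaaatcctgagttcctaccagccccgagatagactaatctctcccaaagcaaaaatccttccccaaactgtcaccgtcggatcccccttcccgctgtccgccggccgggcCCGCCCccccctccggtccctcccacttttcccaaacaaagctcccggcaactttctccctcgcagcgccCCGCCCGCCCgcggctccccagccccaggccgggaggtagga
LATS2, chr13:21061537-21061836, minus strand: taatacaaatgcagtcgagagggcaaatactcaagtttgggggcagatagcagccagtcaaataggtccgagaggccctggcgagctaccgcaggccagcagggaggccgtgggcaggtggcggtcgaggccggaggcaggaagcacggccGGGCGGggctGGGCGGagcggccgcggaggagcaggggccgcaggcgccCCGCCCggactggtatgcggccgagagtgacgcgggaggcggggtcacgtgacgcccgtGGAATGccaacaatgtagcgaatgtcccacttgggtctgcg
AMOT, chrX:112840782-112841081, minus strand: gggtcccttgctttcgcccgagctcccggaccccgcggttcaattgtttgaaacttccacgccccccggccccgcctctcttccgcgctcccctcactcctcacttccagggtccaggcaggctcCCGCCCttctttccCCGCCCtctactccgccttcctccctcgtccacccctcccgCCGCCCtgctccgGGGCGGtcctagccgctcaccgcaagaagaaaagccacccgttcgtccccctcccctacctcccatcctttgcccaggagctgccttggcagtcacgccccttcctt
YAP1, chr11:102110197-102110496, plus strand: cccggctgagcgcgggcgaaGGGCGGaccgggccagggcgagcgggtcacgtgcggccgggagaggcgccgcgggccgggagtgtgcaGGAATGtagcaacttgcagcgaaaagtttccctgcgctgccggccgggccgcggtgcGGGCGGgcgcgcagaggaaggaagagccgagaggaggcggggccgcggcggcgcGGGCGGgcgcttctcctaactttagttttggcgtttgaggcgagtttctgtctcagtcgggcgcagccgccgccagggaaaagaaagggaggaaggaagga
WWTR1, chr3:149657976-149658275, minus strand: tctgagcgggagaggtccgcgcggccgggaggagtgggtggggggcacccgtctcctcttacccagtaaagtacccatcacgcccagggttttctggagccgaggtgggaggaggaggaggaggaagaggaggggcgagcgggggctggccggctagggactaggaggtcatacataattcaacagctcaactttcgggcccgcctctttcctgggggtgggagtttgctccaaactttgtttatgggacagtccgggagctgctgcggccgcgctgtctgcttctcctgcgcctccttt

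The YAP1 and LATS2 windows each held 1 TEAD core match beside 3 SP and KLF matches, and the AMOT window held 4 SP and KLF matches. The printed WWTR1 window held none of the 6 motifs. Peaks covered all 300 bases of the YAP1, AMOT and printed WWTR1 windows in every list, and at least 241 bases of the LATS2 window. WWTR1 has a second window, chr3:149703224-149703523, which held the single FOX match among the members and was covered by no peak in any list. Of the FAT1 window, peaks covered 78 bases in shARID1A rapamycin and 28 in shControl rapamycin, and none in either DMSO list. Of the TEAD2 window, they covered 102 bases in shARID1A DMSO and none in the other lists. Over the 42 windows of the 27 genes, the TEAD core was present in 9, or 21.4%, against 12.2% of 22199 windows of protein-coding genes. The 9 genes were AJUBA, AMOTL2, LATS2, PTPN14, RASSF1, TAOK3, VGLL1, WWC2 and YAP1. Of the 26 windows with a peak in all 4 lists, 6 held the core. The TAOK3 and VGLL1 windows that held it had no peak in any list, and that of AJUBA had none in shARID1A DMSO. The SP and KLF letters were in 66.7% of the members' windows, against 56.3% of all, and CCAAT in 26.2%, against 34.7%. Matches to ETS (9.52% against 21.2%), AP-1 (4.76% against 6.15%) and FOX (2.38% against 2.85%) were fewer. A match of this kind describes letters and not a bound site. The members' windows had a median GC content of 67.7%, against 62.3% over all windows.

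By the deposited gene names, promoter peaks of Hippo genes appeared to differ widely between the lists. A promoter peak was one whose deposited distance to a TSS was at most 1 kb. By this rule 20 members had a promoter peak in shARID1A rapamycin, 21 in shARID1A DMSO, 19 in shControl rapamycin and 25 in shControl DMSO. Only 17 members had one in all 4 lists, 11 in 1 to 3 lists, and 5 in none. The names and distances of peaks at the same place were not the same from list to list, however. Among 30352 regions with 1 peak in each list, the nearest gene differed between lists in 16.2%. It differed in 15 of the 48 regions that were named for a Hippo gene in 1 or more lists, a condition that by itself favours regions with several names, so that this share cannot be set against that of all regions. Peak pairs centred within 50 bp of each other carried different gene names in 9.0% to 9.3% of cases in the 4 comparisons.

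The effector and TEAD genes show how the names differed. The peak over the WWTR1 promoter was named WWTR1-AS1, an antisense gene, in 3 lists, and WWTR1 in shControl DMSO. At TEAD1, which encodes a DNA-binding partner of YAP1, peaks that nearly coincided were given distances to the TSS of -1151 bp in shARID1A rapamycin, -89880 bp in shARID1A DMSO, -133335 bp in shControl rapamycin (under the name AC009806.1) and -276 bp in shControl DMSO. AMOT, an angiomotin that holds YAP1 outside the nucleus, was named in shControl DMSO and given as RN7SL266P in the other 3 lists. RASSF1, a tumour suppressor that binds the STK3 and STK4 kinases, was named in shARID1A rapamycin and replaced by RASSF1-AS1 in the rest. The TAOK1 promoter was named MIR4523 or AC068025.1, that of FRMD6 was named FRMD6-AS1 and that of WWC2 was named WWC2-AS2, in all 4 lists. By name TEAD2 and AJUBA had a promoter peak in shARID1A DMSO alone, TAOK3 in shControl DMSO alone, and LATS1 in all lists but shARID1A DMSO. STK3 had one in both DMSO lists and in neither rapamycin list, where the same place was named RPL19P14, and VGLL4 had one in shARID1A rapamycin and shControl DMSO. LIMD1 fell just outside the 1 kb limit in shARID1A rapamycin at -1026 bp, while VGLL4 lay just inside it at 987 bp in that list and 960 bp in shControl DMSO.

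Promoters were therefore also compared by position, a way chosen after the names had been seen to differ. Peaks that overlapped across lists were joined, which gave 69838 regions, and a region counted as a gene's promoter if it lay within 1 kb of a RefSeq TSS or 5′ end of the gene, or if the authors annotated or named it as that gene's promoter in any list. By position, 32 of the 33 Hippo genes had a promoter region in all 4 lists. The exception was VGLL1, a TEAD cofactor gene, with none in any list. The region counted for TEAD2 was annotated by the authors to the neighbouring gene DKKL1. Of the genes whose promoter was missing from some list by name, 15 had it in all 4 by position, including 4 without a promoter peak by name in any list. Over all 20056 protein-coding genes, 12665 had a promoter region in all 4 lists.

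**Figure D1:**
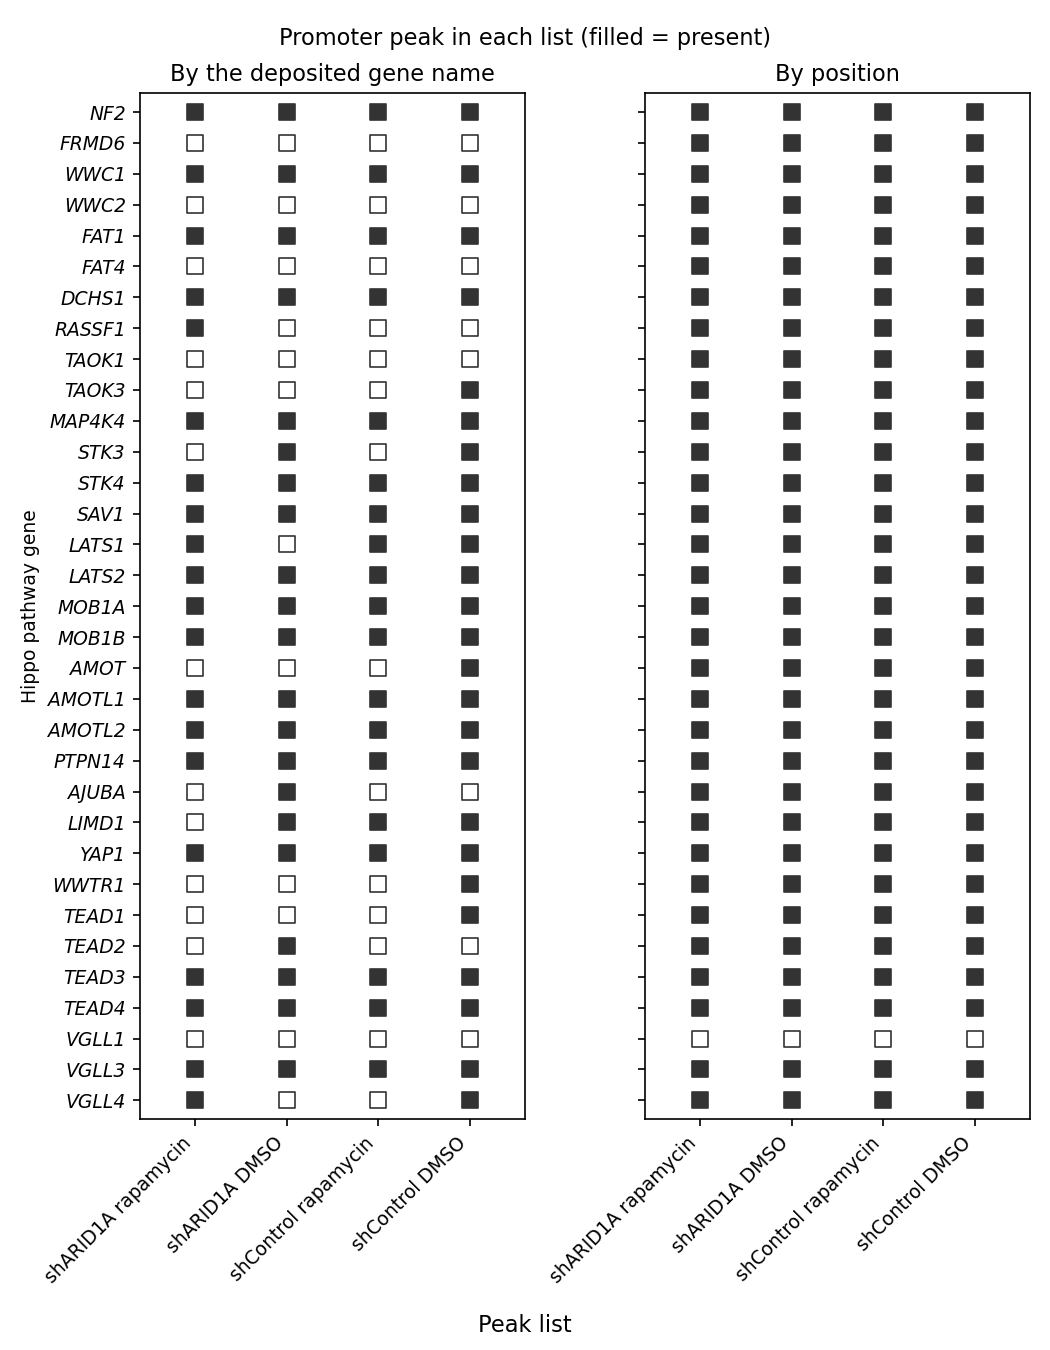
Presence of a promoter peak for each of the 33 Hippo genes (rows, ordered by role) in each peak list (columns), by the deposited gene name on the left and by position on the right. Filled squares mark presence. By name 20, 21, 19 and 25 genes are filled in the 4 columns, and by position 32 are filled in every column, with VGLL1 empty throughout.

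No Hippo gene lost or gained its promoter by position in any of the 4 comparisons. With ARID1A knockdown in DMSO, 0 of 32 were lost (95% upper limit 10.9%), where 2.21% of all promoters were lost, and 0 of 32 gained, where 3.52% were gained. With knockdown in rapamycin, the background was 2.88% lost and 2.50% gained. With rapamycin it was 2.51% lost and 3.04% gained in shControl cells, and 3.08% lost and 1.92% gained in shARID1A cells. With backgrounds this low, 0 of 32 lies near the share over all genes.

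Within the promoters, single peaks differed at FAT1, TEAD2 and AMOTL1. FAT1, which encodes an atypical cadherin upstream of the pathway, had 3 promoter regions on chromosome 4. The one at 186725794-186726724, which reaches the RefSeq 5′ end of the gene, ranked at 88.6% of the list in shARID1A rapamycin, 71.3% in shARID1A DMSO and 50.7% in shControl rapamycin, counted from the strongest peak, and was missing in shControl DMSO. A second one, at 186724077-186724977, ranked at 78.0%, 88.8% and 75.8% in those lists and was missing in shControl DMSO as well. Both were thus absent from a single list, and the remaining FAT1 region was present in all 4. For TEAD2, which encodes another TEAD factor, a narrow peak at the TSS (chromosome 19, 49361905-49362468) was listed in shARID1A DMSO alone, at 85.7%. The strong region that counted as the TEAD2 promoter in all 4 lists lies upstream, at 49362779-49364060, and was annotated by the authors to the neighbouring gene DKKL1. At AMOTL1, an angiomotin gene, a region at the RefSeq 5′ end of the gene (chromosome 11, 94706474-94707654) was absent from shARID1A rapamycin, and it ranked at 81.1% in shARID1A DMSO, 95.2% in shControl rapamycin and 98.4% in shControl DMSO. All of these peaks ranked in the weaker part of the lists that held them.

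The rank of a peak, by the authors' score within its own list, is given as a percentage of the list, with low values for strong peaks. The median rank of the 32 promoters was 17.9% in shARID1A rapamycin, 17.4% in shARID1A DMSO, 19.8% in shControl rapamycin and 18.6% in shControl DMSO. Over all protein-coding genes with a promoter peak it was 15.5%, 15.4%, 15.3% and 14.9% in the same order. On both scales, this one and the ranks among regions in all 4 lists described below, the Hippo median lay nearer the bottom in each list than that of all promoters. On the second scale the Hippo medians were 25.3%, 25.1%, 31.2% and 30.6% in that order of lists, where all promoters had 20.7%, 20.6%, 22.5% and 23.2%.

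Among the 11 upstream genes, promoter ranks ran from the very top of the lists to the bottom. NF2, whose product merlin brings LATS kinases to the membrane, had the strongest Hippo promoter, at 0.2% to 0.4% in the 4 lists. RASSF1 followed at 0.6% to 0.9%. Its only promoter region, 50336693-50338169 on chromosome 3, covers a RefSeq TSS inside the gene. No peak lay within 1 kb of the RefSeq 5′ end of RASSF1, 50340836, in any list. TAOK1, a kinase gene whose product activates STK3 and STK4, stood between 4.5% and 6.4%. At the other end, DCHS1, which encodes the cadherin that binds FAT4, ranked at 60.9% in shARID1A rapamycin, 81.3% in shARID1A DMSO, 62.3% in shControl rapamycin and 80.1% in shControl DMSO. Both rapamycin lists placed it nearer the top than both DMSO lists, as they did 14.2% of all promoters. FAT1 stood at 78.0%, 71.3%, 50.7% and 63.0%, but its strongest peak was not the same region in every list. FRMD6, a FERM-domain gene upstream of the kinases, ranked at 17.9%, 19.4% and 18.7% in the first 3 lists and at 30.5% in shControl DMSO, which was the list that stood apart. MAP4K4, a kinase gene that acts on LATS beside STK3 and STK4, ranked at 14.2% in shARID1A rapamycin, 25.0% in shARID1A DMSO, 20.9% in shControl rapamycin and 17.1% in shControl DMSO. TAOK3, a relative of TAOK1, stood at 16.1%, 14.9%, 15.5% and 10.0% in the same order. The other upstream genes, WWC1 (13.2% to 19.9%), its paralog WWC2 (34.4% to 41.5%) and the cadherin gene FAT4 (20.58% to 33.005%), lay between these ends.

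The 7 core genes had ranks between 6.6% and 40.6%, and the core was the role with the lowest median in every list, at 12.2% in shARID1A rapamycin, 12.3% in shARID1A DMSO, 15.4% in shControl rapamycin and 15.7% in shControl DMSO. LATS2 ranked at 6.6% in shARID1A rapamycin and 7.0% in shARID1A DMSO, against 15.4% in shControl rapamycin and 12.3% in shControl DMSO. STK4 ranked at 14.2% and 10.3% in the shARID1A lists, against 22.5% and 17.2% in the shControl lists. Both genes stood nearer the top in each shARID1A list than in either shControl list, a separation counted over all promoters further on. MOB1B, which encodes an activator of LATS, ranked at 25.8% in shARID1A rapamycin, 40.6% in shARID1A DMSO, 26.9% in shControl rapamycin and 27.5% in shControl DMSO, with shARID1A DMSO apart from the others. LATS1 ranked at 10.8% in shARID1A rapamycin, 12.3% in shARID1A DMSO, 8.8% in shControl rapamycin and 15.7% in shControl DMSO, and STK3 at 12.2%, 15.4%, 8.1% and 10.6% in that order. Both stood nearer the top in the rapamycin list of each kind of cell. For STK3 these ranks are those of the stronger of 2 promoter regions, which lies inside the gene. The other STK3 region, near the RefSeq 5′ end, ranked at 23.6% in shARID1A rapamycin and 24.0% in shARID1A DMSO. It ranked at 30.0% in shControl rapamycin against 20.7% in shControl DMSO, and so stood nearer the bottom with rapamycin in shControl cells. MOB1A, the paralog of MOB1B, was between 8.0% and 11.7% in all lists, and the scaffold gene SAV1 between 23.7% and 28.7%.

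The 6 genes whose products restrain YAP1 or LATS varied in the same way. AMOTL2 was strong, between 2.9% and 4.9%. AMOT ranked at 26.2% and 25.9% in the shARID1A lists, against 32.6% and 32.8% in the shControl lists, without overlap. Of all promoters, 18.3% separated in that direction. AMOTL1 ranked at 37.6% in shARID1A rapamycin, 43.5% in shARID1A DMSO, 30.9% in shControl rapamycin and 38.1% in shControl DMSO. PTPN14, a phosphatase gene, stayed between 16.9% and 21.7%. LIMD1 and AJUBA encode LIM proteins that inhibit LATS. LIMD1 ranked at 12.9% in shARID1A rapamycin, 13.2% in shARID1A DMSO, 10.0% in shControl rapamycin and 18.3% in shControl DMSO, and AJUBA at 36.44%, 27.09%, 27.99% and 26.09% in that order. For AJUBA these are the ranks of the stronger of 2 promoter regions, which lies inside the gene. The other AJUBA region, over the RefSeq 5′ end, ranked at 47.7%, 58.6%, 54.7% and 54.8% in that order, with shARID1A rapamycin nearest the top.

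For the effectors, the YAP1 promoter ranked at 30.6% in shARID1A rapamycin, 24.7% in shARID1A DMSO, 26.3% in shControl rapamycin and 21.4% in shControl DMSO. The WWTR1 promoter ranked at 26.0%, 13.7%, 22.2% and 18.4% in the same order. Both effector promoters were placed nearer the bottom in the rapamycin list than in the DMSO list of each kind of cell. Of the TEAD genes, TEAD1 (10.5%, 9.6%, 12.4% and 14.4%) had a stronger promoter than TEAD3 (24.1% to 31.3%) and TEAD4 (34.4% to 44.9%). The region counted for TEAD2, which the authors annotated to DKKL1, ranked at 7.2% in shARID1A rapamycin and 9.5% in shARID1A DMSO. It ranked at 9.9% in shControl rapamycin and 9.2% in shControl DMSO. At the TEAD2 TSS itself the only peak was that of shARID1A DMSO, at 85.7%. The TEAD1 promoter stood nearer the top in both shARID1A lists than in either shControl list, as did 18.3% of all promoters. VGLL4, which encodes a competitor of YAP1 for TEAD, ranked at 8.3%, 7.5%, 6.3% and 10.8% in the same order of lists. For VGLL4 these are the ranks of the stronger of 2 promoter regions, which lies inside the gene. The other VGLL4 region, nearer the RefSeq 5′ end, ranked at 42.6%, 38.2%, 41.7% and 61.1% in that order. VGLL3, a further TEAD cofactor gene, ranked between 43.9% and 46.4%.

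Ranks that separated 2 lists from the other 2 without overlap were frequent among all promoters. Both shARID1A lists stood nearer the top than both shControl lists for 5 of the 32 Hippo promoters (LATS2, STK4, MOB1A, AMOT and TEAD1), or 15.6%, where 18.3% of all promoters did so. They stood nearer the bottom for 4 (STK3, NF2, WWC2 and FAT1), or 12.5%, against 19.0% of all. Both rapamycin lists stood nearer the top than both DMSO lists for 7, or 21.9%, against 14.2% of all, among them DCHS1, LATS1 and FRMD6. They stood nearer the bottom for another 7, among them YAP1, WWTR1 and TEAD4, against 18.0% of all. The share of Hippo promoters that separated with shARID1A nearer the top, LATS2, STK4, AMOT and TEAD1 among them, was thus near that of all promoters.

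**Figure D2:**
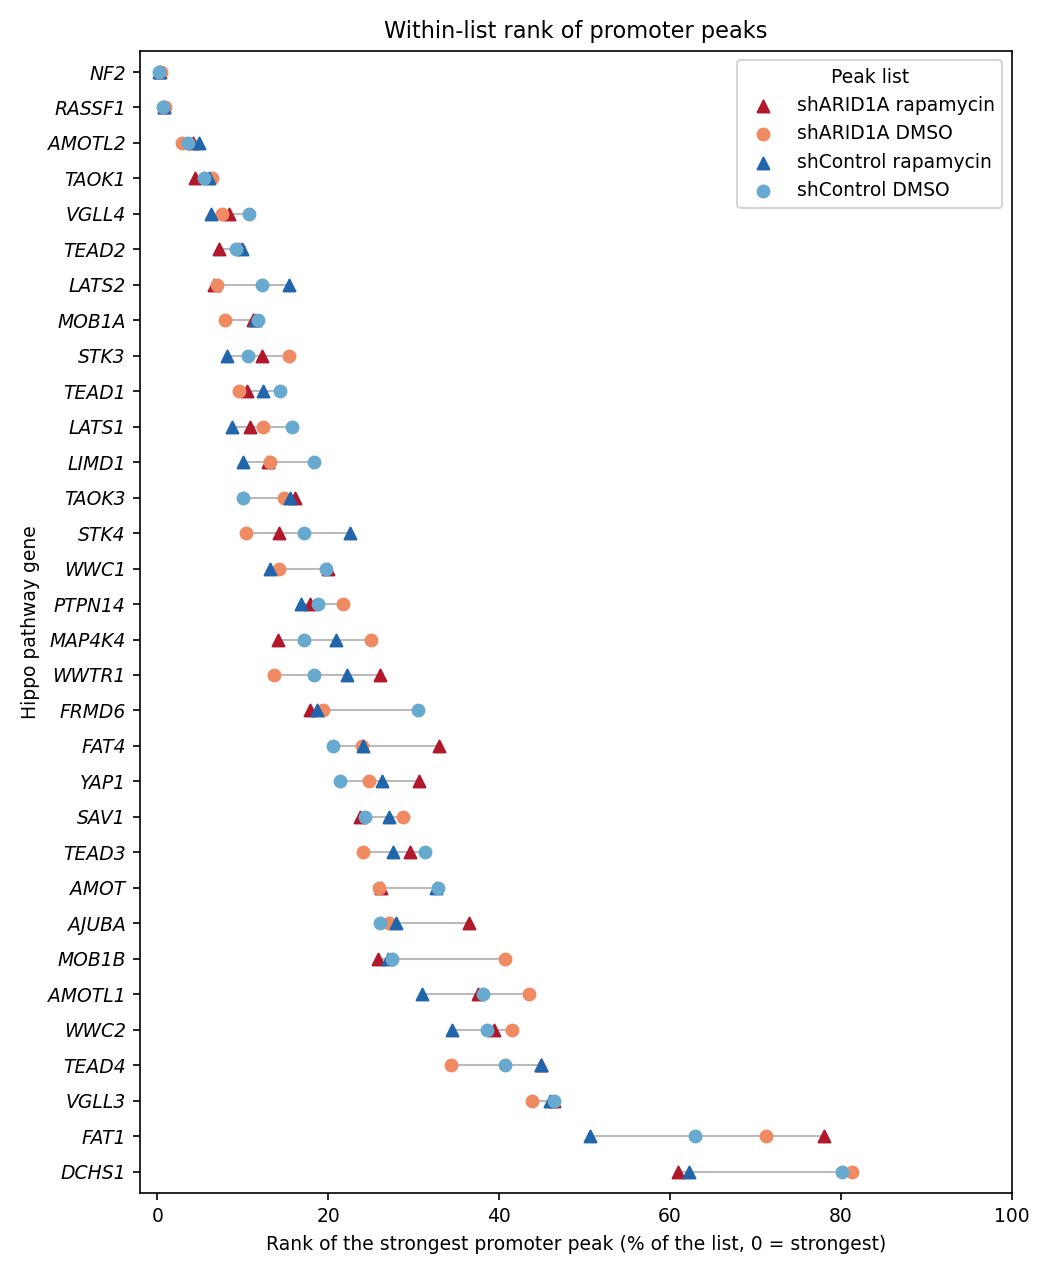
Rank of the strongest promoter peak of 32 Hippo genes (rows, strongest at the top) as a percentage of the list, with 0 for the strongest peak. Each symbol is 1 library (triangles rapamycin, circles DMSO, red shARID1A, blue shControl) and grey lines join the lowest and highest. NF2 and RASSF1 lie under 1% in every list, and FAT1 and DCHS1 beyond 50%.

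Because the lists differ in length, ranks were also taken among the 31585 regions present in all 4 lists, as a percentage of them, and a shift of 10 points or more was counted. With ARID1A knockdown in DMSO, 9 of 32 Hippo promoters stood nearer the top and 1 nearer the bottom, where the background over 12629 promoters was 20.2% and 3.72%. With knockdown in rapamycin, 4 stood nearer the top and 0 nearer the bottom, where the background was 16.4% and 5.85%. Shifts to the top thus outnumbered shifts to the bottom among Hippo promoters, as they did among all promoters. LATS2, STK4 and AMOT, 3 of the 32, stood nearer the top by 10 points or more in both treatments (background 6.68%), and 0 of the 32 nearer the bottom in both (background 0.681%).

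LATS2 ranked at 9.4% in shARID1A rapamycin and 10.1% in shARID1A DMSO on this scale, against 24.3% in shControl rapamycin and 20.2% in shControl DMSO. STK4 ranked at 20.1% and 14.9% in the shARID1A lists, against 35.4% and 28.3% in the shControl lists, and AMOT at 37.0% and 37.4%, against 50.8% and 53.0%. None of these ranges overlapped between shARID1A and shControl. On this scale 10 of the 32 Hippo promoters (31.3%) separated in that way with shARID1A nearer the top, where 30.3% of all promoters did, and NF2 alone with shARID1A nearer the bottom, where 10.4% of all did. The largest shift, shARID1A minus shControl, was that of FRMD6, with -21.5 points in DMSO (28.1% in shARID1A DMSO, 49.5% in shControl DMSO) and -4.1 points in rapamycin (25.3% in shARID1A rapamycin, 29.4% in shControl rapamycin), negative values lying nearer the top in shARID1A. TEAD3 shifted by -16.1 points in DMSO and -1.6 in rapamycin, and TEAD4 by -15.0 and -6.0. MOB1B was the gene that shifted to the bottom in DMSO, by 12.5 points (57.4% in shARID1A DMSO, 44.9% in shControl DMSO), and its shift in rapamycin was -5.8 points. YAP1 differed by under 2 points in both treatments, with 43.0% in shARID1A rapamycin against 41.3% in shControl rapamycin, and 35.6% in shARID1A DMSO against 35.2% in shControl DMSO.

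**Figure D3:**
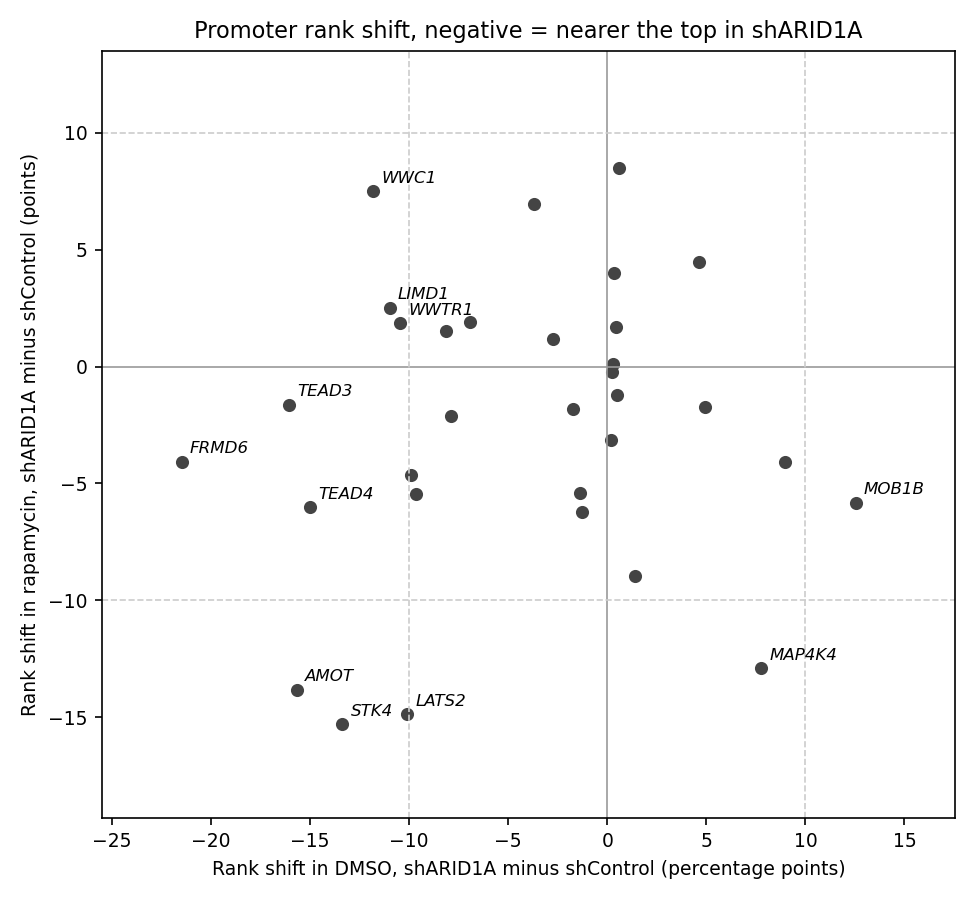
Shift of promoter rank with ARID1A knockdown for 32 Hippo genes, as the rank in shARID1A minus that in shControl among regions in all 4 lists, in DMSO (horizontal) and in rapamycin (vertical), in percentage points. Dashed lines mark 10 points, genes beyond them are named, and LATS2, STK4 and AMOT lie beyond them towards the top in both treatments.

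With rapamycin in shControl cells, 6 of 32 promoters stood nearer the top and 1 nearer the bottom (background 13.7% and 9.28%). In shARID1A cells, 3 stood nearer the top and 4 nearer the bottom (background 7.18% and 8.27%). FRMD6 had the largest shift in shControl cells, 29.4% in rapamycin against 49.5% in DMSO. MOB1B had the largest in shARID1A cells, 36.5% in rapamycin against 57.4% in DMSO, followed by WWTR1, which moved the other way, with 36.7% in rapamycin against 19.8% in DMSO. In shControl cells WWTR1 stood at 34.9% in rapamycin against 30.2% in DMSO. MAP4K4 stood at 20.1% in shARID1A rapamycin against 36.0% in shARID1A DMSO, and its shift with rapamycin in shControl cells was 4.7 points towards the bottom. No member shifted by 10 points or more in opposite directions in the 2 kinds of cell. DCHS1 was nearer the top with rapamycin in both, by a shift of -16.1 points in shARID1A cells and -11.2 points in shControl cells.

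Distal peaks, over 1 kb from a TSS by the deposited distance, carried a Hippo gene's name 37 times in shARID1A rapamycin, 39 in shARID1A DMSO, 37 in shControl rapamycin and 49 in shControl DMSO. The authors annotated 2, 3, 1 and 1 of them as promoter-TSS in that order, the TEAD1 promoter peak of shARID1A DMSO among them. The peak over the FAT4 5′ end, annotated as intergenic, also counted as distal in every list. Some peaks counted as distal thus lay at promoters. WWC1, which encodes the junctional protein KIBRA, and MAP4K4 held the most, with 9, 9, 8 and 9 peaks and 6, 8, 10 and 7 peaks in that order. Most of the named distal peaks were intronic by the authors' annotation, between 59.5% in shARID1A rapamycin and 67.6% in shControl rapamycin, where introns held 49.2 to 51.2% of all distal peaks. The names differed for distal peaks too, and VGLL4 had 3 named distal peaks in shARID1A rapamycin, 0 in shARID1A DMSO, 0 in shControl rapamycin and 4 in shControl DMSO, yet the distal regions inside the gene numbered 3, 3, 3 and 4 in that order, most of them under the names AC022001.2 or AC022001.3.

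By name and deposited distance, the share of distal Hippo peaks without a match stayed near that of all distal peaks. With knockdown in DMSO, 19 of 49 peaks were lost (38.8%, background 34.9%) and 9 of 39 gained (23.1%, background 22.1%). With knockdown in rapamycin, 14 of 37 were lost (37.8%, background 33.8%) and 10 of 37 gained (27.0%, background 23.0%). With rapamycin, 15 of 49 were lost in shControl cells (30.6%, background 27.0%) and 8 of 37 gained (21.6%, background 23.0%), and 12 of 39 were lost in shARID1A cells (30.8%, background 27.1%) and 7 of 37 gained (18.9%, background 25.2%). Every background lay inside the 95% interval of its share. With lists reduced to an equal number of top peaks, 8 of 38 were lost with knockdown in DMSO (21.1%, 95% interval 9.55 to 37.3%), where the background in those shortened lists was 26.7%.

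Inside the genes and away from promoters, 129 distal regions were found by position in 24 Hippo genes, of which 117 were intronic and 45 were named for the gene that holds them. The numbers were 59 in shARID1A rapamycin, 79 in shARID1A DMSO, 84 in shControl rapamycin and 89 in shControl DMSO. All 4 lists held 41 of them (31.8%, against 32.7% of 25874 such regions in all protein-coding genes). Both shControl lists and neither shARID1A list held 8 (6.20%, against 6.57%), while the converse held for 0 (background 1.99%). Both DMSO lists alone held 4 (3.10%, against 2.42%) and both rapamycin lists alone held 1 (0.775%, against 1.80%).

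WWTR1 and STK3 had the largest gap between the fullest and the emptiest list, 5 regions each. WWTR1 had 1 distal region in shARID1A rapamycin and 1 in shARID1A DMSO, against 6 in shControl rapamycin and 5 in shControl DMSO. None of its 6 regions was in all 4 lists. The region on chromosome 3 at 149542328-149543055, in an intron 182.1 kb from the 5′ end, ranked at 75.7% in shControl rapamycin and 45.5% in shControl DMSO, and that at 149581697-149582317, 142.8 kb in, ranked at 39.1% and 64.6%. Another, at 149551399-149551883, ranked at 70.7% and 97.7%, and all 3 were missing in both shARID1A lists. In shARID1A DMSO 1 number was skipped in the interval that holds these regions, so that at most 1 of them could lie behind it, and none was skipped there in shARID1A rapamycin. Of the other 3 regions, 1 was in shControl rapamycin alone and each of the rest was in both shControl lists and 1 shARID1A list. Distances in WWTR1 run from the RefSeq 5′ end of the gene, 149724788. That end lies upstream of the WWTR1 promoter region, 149656639-149658941.

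FAT1 also had fewer distal regions in the knockdown lists, with 1 and 1, against 3 in shControl rapamycin and 4 in shControl DMSO. Those at 186593285-186593781 (76.8% in shControl rapamycin, 64.6% in shControl DMSO) and 186698129-186698747 (74.1% and 59.0%) were in both shControl lists and neither shARID1A list. A further one, at 186643861-186644249, was in shControl DMSO alone at 48.4%. In shARID1A DMSO 2 numbers were skipped in the interval that holds the first and the last of these. YAP1 had 2 in shARID1A rapamycin, 4 in shARID1A DMSO, 4 in shControl rapamycin and 6 in shControl DMSO. The strongest YAP1 distal region, 68.0 kb into the gene (chromosome 11, 102177992-102178881), was in all lists, at 71.8% in shARID1A rapamycin, 49.2% in shARID1A DMSO, 49.0% in shControl rapamycin and 31.6% in shControl DMSO. It was named AP000942.2 and stood nearer the bottom in the rapamycin list of each kind of cell.

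STK3 had 5, 9, 6 and 10 regions in the same order of lists, fewer in each rapamycin list than in the DMSO list of the same cells. Its 12 regions include 4 in all lists and 1, 134.2 kb from the 5′ end, in both shControl lists alone (64.7% in shControl rapamycin, 87.9% in shControl DMSO). TEAD1 held the most regions of any member, 16, with 10 in shARID1A rapamycin, 11 in shARID1A DMSO, 11 in shControl rapamycin and 9 in shControl DMSO, and 7 in all 4 lists. MAP4K4 had 6, 6, 7 and 6, with 2 of 11 regions in all lists, and PTPN14 had 5, 6, 6 and 6, with 4 of 8. NF2 had 0, 3, 1 and 1, all of them weak, between 83.1% and 98.7%. FRMD6 (3, 3, 4 and 4 of 7 regions) and LIMD1 (4, 4, 3 and 5 of 7) differed by at most 2 regions, as did AMOTL1 (3, 5, 4 and 5 of 6). At VGLL4, the region at 11653398-11654067 was in shARID1A DMSO (88.7%) and shControl DMSO (49.0%) and in neither rapamycin list.

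Among the 41 regions in all lists, 8 (19.5%) stood nearer the bottom by 10 points or more with knockdown in both treatments, where the background was 17.0%, and 2 (4.88%) stood nearer the top, where it was 7.43%. Both shares lay near those of all genes. The 8 lie in WWC1 (2), PTPN14 (2), YAP1, TEAD1, LATS2 and AMOTL1, and the 2 in MOB1B and AMOTL2. The shifts were taken on ranks among regions in all lists. The ranks given for these regions below are within the list unless stated.

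WWC1 had the same number of regions, 7 in every list, while several of them differed in rank. The intronic region at 168362143-168362709 on chromosome 5, 70.8 kb from the 5′ end, ranked at 65.4% in shARID1A rapamycin and 65.9% in shARID1A DMSO, against 27.1% in shControl rapamycin and 20.1% in shControl DMSO. The one at 168308955-168309733 ranked at 54.6% and 65.4% in the shARID1A lists, against 39.2% and 41.7% in the shControl lists. The strongest WWC1 distal region, at 168317348-168318160, ranked at 18.5% and 13.3% in the shARID1A lists, against 11.6% and 8.2% in the shControl lists, a shift of under 10 points among regions in all lists. By rank within the list, all 5 WWC1 regions in all lists stood nearer the bottom in both shARID1A lists than in either shControl list. By rank among regions in all lists, those at 168314704-168316645 and 168364741-168365547 overlapped between shARID1A and shControl. The first ranked at 79.8% and 74.0% in the shARID1A lists, against 60.7% and 76.1% in the shControl lists. The second ranked at 76.2% and 88.8%, against 72.4% and 78.3%. The share of all gene-body distal regions that separated was not counted on either scale. Among regions in all lists, 61.3% of such regions stood nearer the bottom with knockdown in DMSO by any amount, and 58.2% in rapamycin.

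In LATS2, an intronic region at 21014335-21015158 on chromosome 13 ranked at 82.3% in shARID1A rapamycin and 80.2% in shARID1A DMSO, against 46.2% in shControl rapamycin and 33.7% in shControl DMSO. At LATS2 the promoter thus stood nearer the top and this distal region nearer the bottom in both shARID1A lists. In AMOTL1, the region at 94737201-94738315 on chromosome 11 ranked at 59.7% and 69.6% in the shARID1A lists, against 43.5% and 30.2% in the shControl lists. In TEAD1, that at 12827616-12828777 on the same chromosome ranked at 64.2% and 62.6%, against 37.5% and 40.7%. The 2 regions in PTPN14 on chromosome 1 ranked at 58.1% and 44.1% in the shARID1A lists, against 30.9% and 27.4% in the shControl lists (214438800-214441257), and at 29.5% and 28.9%, against 19.7% and 15.5% (214446715-214447791).

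The regions of MOB1B and AMOTL2 lay on the other side. The only distal region of MOB1B, at 70927292-70929635 on chromosome 4, ranked at 51.95% in shARID1A rapamycin and 50.02% in shARID1A DMSO, against 66.9% in shControl rapamycin and 71.6% in shControl DMSO. An intronic region of AMOTL2 at 134363792-134364640 on chromosome 3, 11.2 kb from the 5′ end, ranked at 1.8% and 4.0% in the shARID1A lists, against 18.1% and 12.4% in the shControl lists. It was thus among the strong peaks of both shARID1A lists.

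**Figure D4:**
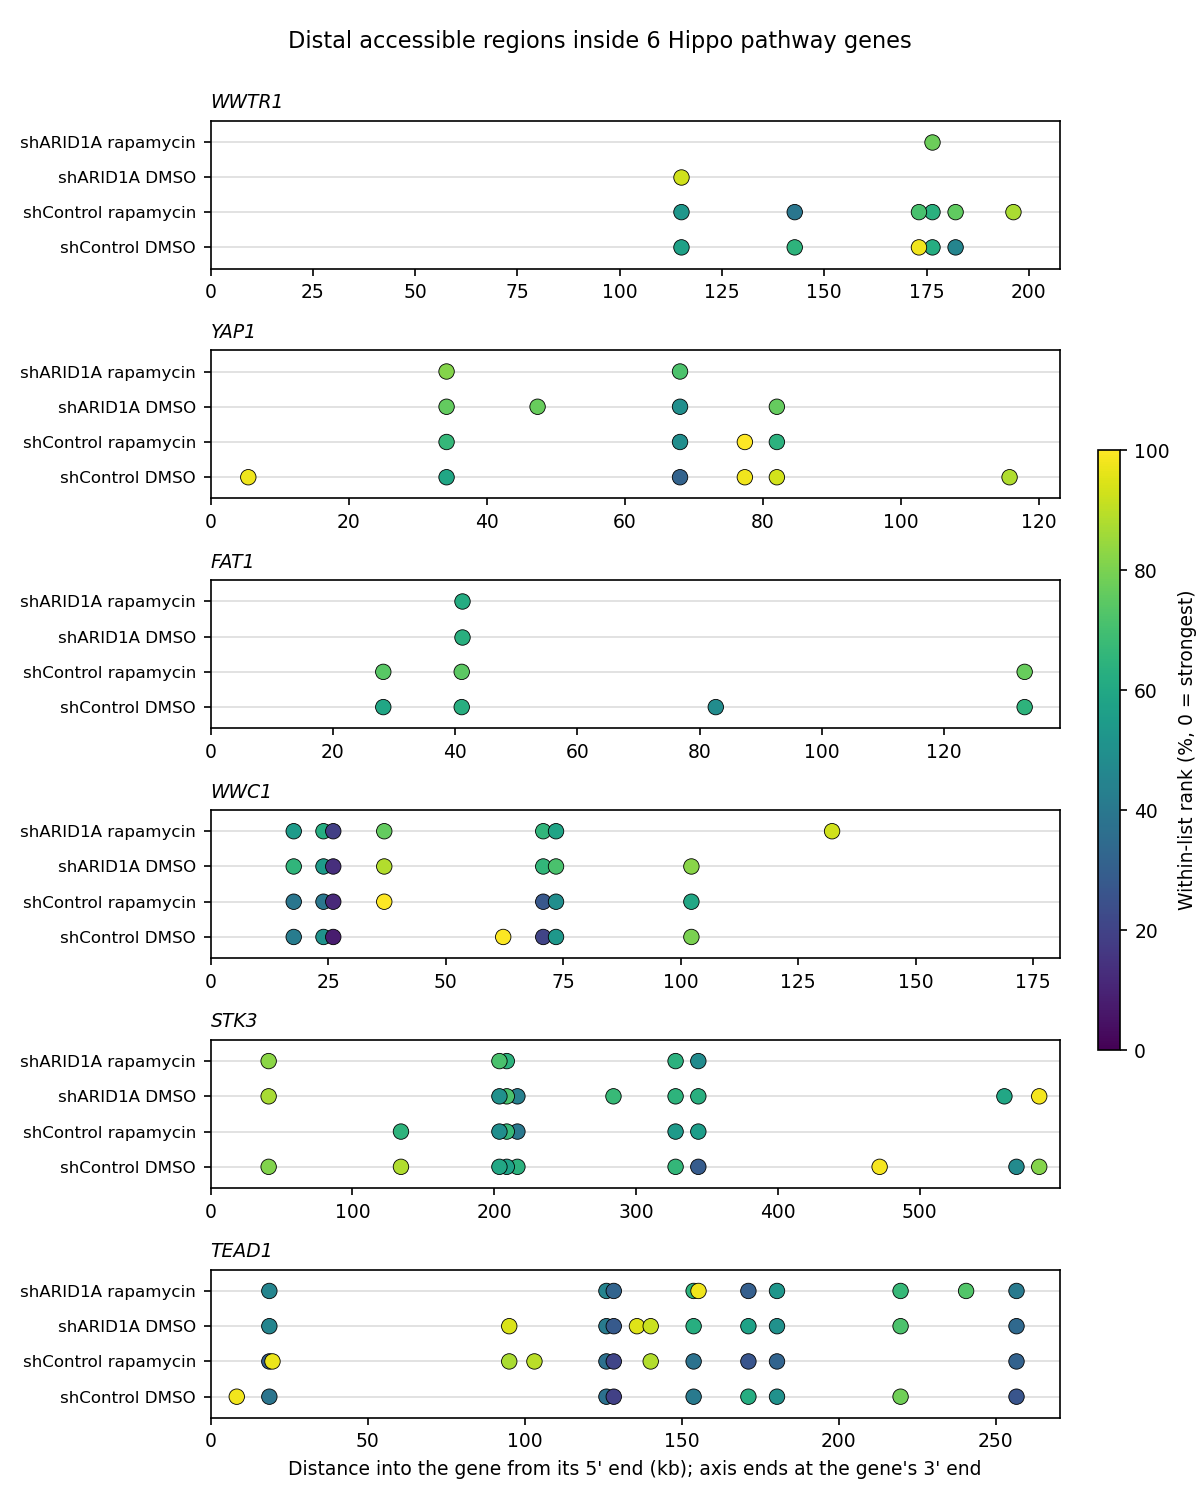
Distal accessible regions inside WWTR1, YAP1, FAT1, WWC1, STK3 and TEAD1, by distance from the RefSeq 5′ end of the gene in kb (horizontal) and by peak list (rows, 1 library each). Dark points are strong and light points weak by rank within the list. WWTR1 has 1 point in each shARID1A row against 6 and 5 in the shControl rows, and the WWC1 point at 70.8 kb is darker in the shControl rows.

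Over the 129 regions, the share lost with knockdown in DMSO was 29 of 89 (32.6%, 95% interval 23.0 to 43.3%), where the background was 37.4%, and 19 of 79 were gained (24.1%, background 24.2%). Of the 29 lost, 11 lay in an interval in which shARID1A DMSO skipped a number. With knockdown in rapamycin, 38 of 84 were lost (45.2%, 34.3 to 56.5%, background 37.0%), none in such an interval, and 13 of 59 gained (22.0%, background 24.2%). With rapamycin in shControl cells, 27 of 89 were lost (30.3%, 21.0 to 41.0%, background 29.1%) and 22 of 84 gained (26.2%, background 24.9%). With rapamycin in shARID1A cells, 32 of 79 were lost (40.5%, 29.6 to 52.1%, background 30.4%) and 12 of 59 gained (20.3%, background 26.6%). Losses exceeded the background most in the pair of comparisons that contain shARID1A rapamycin, the shortest list, and each background still lay inside the interval.

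**Figure D5:**
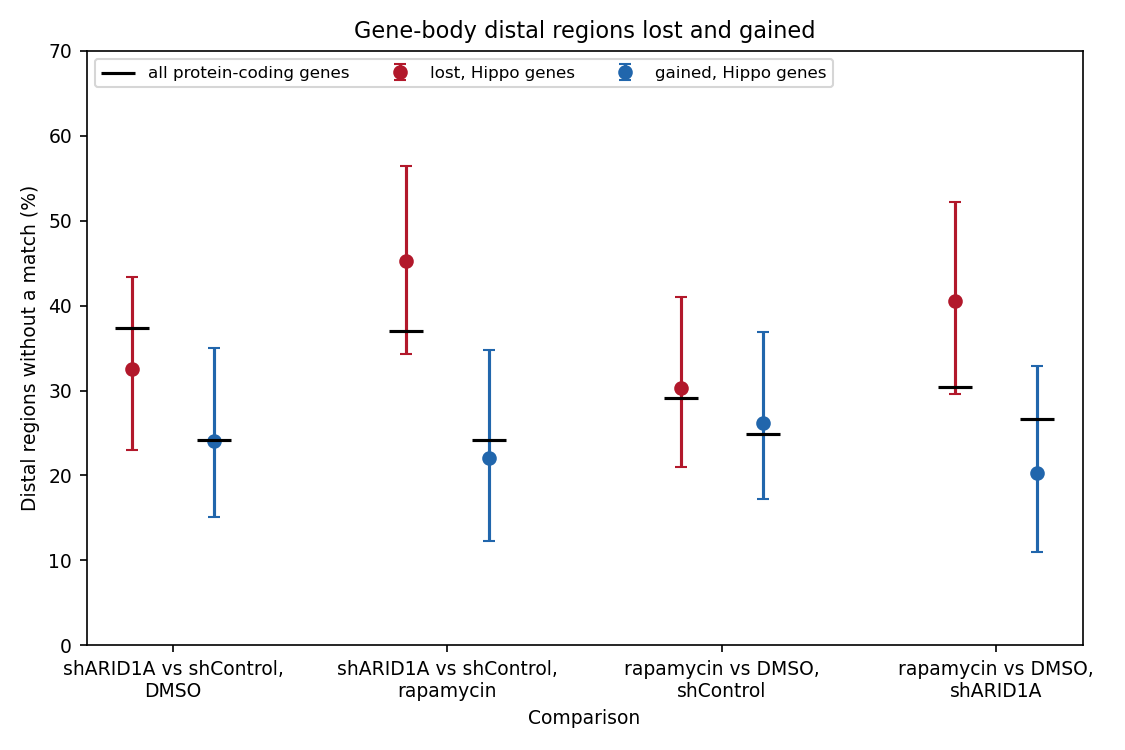
Share of distal regions inside Hippo genes that were lost (red) or gained (blue) in each of 4 comparisons of 1 library against 1, with exact 95% binomial intervals for counting error, and the share over all protein-coding genes (black bars). All black bars lie within the intervals, and the largest Hippo share is the 45.2% lost with knockdown in rapamycin.

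The distal regions in all 4 lists ranked nearer the bottom with knockdown in Hippo genes and in other genes. Their median rank among regions in all lists was 70.5% in shARID1A rapamycin and 67.9% in shARID1A DMSO, against 60.1% in shControl rapamycin and 56.9% in shControl DMSO, over 41 regions. Over 8461 such regions of all protein-coding genes it was 66.6% and 66.9%, against 63.5% and 62.8%. With knockdown in DMSO 27 of the 41 (65.9%) stood nearer the bottom by any amount, where 61.3% of all such regions did, and in rapamycin 29 of 41 (70.7%), where 58.2% did, with median shifts of 7.2 and 8.0 points, where all regions shifted by 3.9 and 3.0 points. The median shift of the 32 promoters went to the top, by -2.2 points in DMSO and -1.8 points in rapamycin, where all promoters shifted by -1.9 and -1.2 points.

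A list of 38 other genes of the pathway, such as further MAP4K kinases, polarity proteins and the STRIPAK phosphatase complex, was counted in the same way. By position 31 had a promoter in all 4 lists, 3 (FAT2, FAT3 and WWC3) in none, and 4 (FJX1, CRB3, PATJ and LLGL1) in 1 to 3 lists. The totals were 33 in shARID1A rapamycin, 34 in shARID1A DMSO, 33 in shControl rapamycin and 32 in shControl DMSO. Their bodies held 148 distal regions, with 76 in shARID1A rapamycin, 85 in shARID1A DMSO, 90 in shControl rapamycin and 101 in shControl DMSO.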

How the data were processed

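ATAC-seq libraries were made from 50000 Huh7 cells each, 1 per group, and the submitters' processing notes name BWA, MACS2 2.0 and the build GRCh38 (hg38). Tool settings, read depth and the handling of duplicates and of the transposase offset are left unstated in the sources used here. Per the file headers, each list gives the positions, scores, annotations, TSS distances and nearest genes of the peaks of 1 library. The scale of the deposited score is not given either, and it was used only to rank peaks within a list. The members and gene lists were chosen with earlier results of these data known.

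Members were found by symbol, and 25 older aliases were searched. The alias TAZ matched peaks on chromosome X alone, away from WWTR1, and was left out. Peaks overlapping by at least 1 bp matched, and peaks that overlapped across lists were joined into regions. RefSeq genes of GRCh38.p14 gave gene bodies, promoter windows and TSS. The strand of 2444 genes without a promoter window was read from the authors' distances. Lost means present in the comparison's shControl or DMSO list and unmatched in the other, and gained is the converse. Shares have exact (Clopper-Pearson) 95% intervals. All members were accounted for, and full values were given for those with a promoter peak in some lists only, with the most distal regions, with the largest gap in distal regions or with the largest spread of promoter rank. Distal regions absent from both lists of 1 genotype or 1 treatment were named where they ranked above the median of a list. Merging, matching and promoter assignment were tested on simulated lists of 5000 positions, where all 11 counts were recovered. Python 3.11.15, pandas 2.3.3, NumPy 2.4.6, SciPy 1.17.1 and matplotlib 3.10.9 were used.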

Additional observations from a re-analysis of the deposited data

How the results depend on the processing

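Of 192 alternative values, 34 moved, 11 of them in the stronger 50% of each list, 7 by position and 5 with the gene body and 50 kb around it. By position, an alternative chosen after seeing the data, 32 members had a promoter in every list, and the distal regions numbered 59 in shARID1A rapamycin, 79 in shARID1A DMSO, 84 in shControl rapamycin and 89 in shControl DMSO. The setting with the gene body and 50 kb around it took all peaks there, whatever gene they were named for. By it, 29 members had a promoter peak of some gene, not always their own, in shControl rapamycin. Distal peaks numbered 124, 150, 156 and 158 in the same order of lists. In the stronger 50% of each list, distal peaks numbered 12, 10, 16 and 16. In that subset, distal peaks gained with knockdown came to 10.0% in DMSO and 8.33% in rapamycin, distal peaks lost with rapamycin to 10.0% in shARID1A and 12.5% in shControl cells, and the promoter peaks gained with knockdown in DMSO, lost with rapamycin in shARID1A cells and gained with rapamycin in shControl cells all to 0%. The last of these was also 0% with promoters within 500 bp. Distal peaks lost with knockdown in DMSO came to 21.1% with an equal number of 44760 top peaks, against 38.8% in full lists. Distal peaks lost with rapamycin in shControl cells came to 49.0% when peaks had to overlap by 50% of each. The median promoter rank was 25.3%, 25.1%, 31.2% and 30.6% among regions in all 4 lists, in the same order, and 18.9%, 23.9%, 21.6% and 20.1% for the peak nearest to the TSS. The cause of these moves was not tested, except that a stricter subset holds fewer peaks. Of the counts, 32 of 48 stayed within 1.5 times, and of the shares 126 of 136 stayed within the 95% interval. None of 8 median ranks stayed within the narrow binomial interval of a rank in its list. All values with promoters within 3000 bp, with peaks widened by 250 bp and with skipped numbers as an upper bound stayed within these limits. Motifs could not be searched in the deposited promoter peaks, since no genome was used here. No paired analysis was possible because each group held 1 library and no result came from a test. The unknown read depth limits every statement on absent peaks.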
